A study of Mus musculus with 5 samples.

Results

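Gene expression in back skin of an Xpa mutant mouse line was set against that of wild-type (WT) skin 24 h after UVB, on the 2 arrays of that time among the 5 of the study. The arrays are the Xpa mutant and the WT array at 24 h, the Xpa mutant and the WT array at 3 h, and a WT array without UV. All animals were hairless albino mice, the irradiated skin had received 1 kJ per square metre of UVB, and each group had 1 array. Neither the Xpa allele, nor age or sex, nor whether an array holds RNA of a single animal or of a pool is stated in the labels. Unirradiated mutant skin was not analysed here, so whether a difference arose after UVB or was there already cannot be told apart. Of 34967 gene spots, 9702 were unmasked on both arrays at 24 h and above background on at least 1 of them, which is how the spots compared here were chosen. A further 42 of these had an irregular or P flag and were left out. The remaining 9660 spots, 7280 of them above background on both arrays, gave 7133 named genes, while 1731 spots carried no gene name here and 226 carried several.

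Xpa encodes a protein of nucleotide excision repair that checks damaged DNA and holds the repair complex in place, so cells without it keep the bulky lesions that UVB makes. In humans its loss causes xeroderma pigmentosum, with sunburn-like inflammation and skin cancer at exposed sites. In mouse skin UVB is known to kill keratinocytes, draw in neutrophils through chemokines such as Cxcl1, and later thicken the epidermis and remake its cornified envelope, the cross-linked protein and lipid shell of the outermost cells. The series was made around Cxcl1 in UVB inflammation of Xpa mutants.

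A value below is a level on the log2 scale of normalised intensity, and a difference is the level on the Xpa mutant array minus that on the WT array of the same time. A gene is called higher or lower at a difference of at least 1, which is 2-fold. With 1 array per group there is no replicate, no test and no error of a difference, and each statement compares 2 arrays. A level below background is marked as such, and the fold is then given as "at least", set against the lowest level above background on the dimmer array (7.04 on the Xpa mutant and 7.05 on that of WT at 24 h) where the dim spot lies under it. A gene above background on 1 array alone was compared because that array was bright, which favours the sign of its difference. For lists that hold many such genes, values are therefore given also over the members above background on both arrays.

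The promoters of 6 genes are shown first, 3 of the late cornified envelope group that held the largest differences and 3 of inflammatory genes, of which Cxcl2 and Saa3 were called higher and Cxcl1 lay just short of 2-fold. They run from 250 bases before to 50 bases after the start of the gene, 5′ to 3′, and come from RefSeq on build GRCm38.p6. Capitals in the first 3 mark the letters ATAAAA, a variant of the TATA element, chosen after these promoters had been read.
Lce1c (chr3:92678997-92679296, plus strand): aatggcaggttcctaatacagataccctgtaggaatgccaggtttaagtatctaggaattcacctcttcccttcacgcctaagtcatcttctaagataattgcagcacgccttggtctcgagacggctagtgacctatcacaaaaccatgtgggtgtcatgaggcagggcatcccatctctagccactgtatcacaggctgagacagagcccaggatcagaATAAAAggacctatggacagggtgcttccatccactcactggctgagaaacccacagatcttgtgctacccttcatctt
Lce1b (chr3:92656877-92657176, minus strand): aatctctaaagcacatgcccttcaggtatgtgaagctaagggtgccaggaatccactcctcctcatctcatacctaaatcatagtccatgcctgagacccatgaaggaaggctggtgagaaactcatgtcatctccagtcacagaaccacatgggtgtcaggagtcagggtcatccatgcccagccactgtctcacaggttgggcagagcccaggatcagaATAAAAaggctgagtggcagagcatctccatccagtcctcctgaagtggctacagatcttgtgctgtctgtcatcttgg
Lce1i (chr3:92778850-92779149, minus strand): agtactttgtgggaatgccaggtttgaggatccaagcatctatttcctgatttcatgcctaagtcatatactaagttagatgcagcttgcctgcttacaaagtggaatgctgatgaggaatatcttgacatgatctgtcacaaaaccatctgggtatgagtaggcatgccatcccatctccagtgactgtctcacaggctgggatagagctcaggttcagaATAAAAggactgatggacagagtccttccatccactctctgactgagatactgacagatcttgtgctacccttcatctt
In all 3 the capitals begin 29 bases before the start. On either strand, ATAAAA was present in the promoters of 9 of the 10 Lce1 genes that the table holds, against 10.9% of the 5739 promoters of compared genes. It was not particular to lower genes. Of the 6 promoters at hand of chemokines called higher 5 held it. So did 23.6% of the promoters of all genes called higher and 18.4% of those called lower.

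Capitals in the next pair mark letters that match GGGANNTTCC, a form of the NF-kB element. The motif was searched on both strands, and the stretch in capitals holds 2 overlapping matches, which lie on opposite strands.
Cxcl1 (chr5:90890995-90891294, plus strand): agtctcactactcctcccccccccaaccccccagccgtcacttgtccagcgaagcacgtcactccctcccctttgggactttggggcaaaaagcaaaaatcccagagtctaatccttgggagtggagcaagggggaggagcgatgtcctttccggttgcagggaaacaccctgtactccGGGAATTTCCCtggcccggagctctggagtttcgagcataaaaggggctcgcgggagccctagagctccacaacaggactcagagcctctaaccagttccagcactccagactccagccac
Cxcl2 (chr5:90903649-90903948, plus strand): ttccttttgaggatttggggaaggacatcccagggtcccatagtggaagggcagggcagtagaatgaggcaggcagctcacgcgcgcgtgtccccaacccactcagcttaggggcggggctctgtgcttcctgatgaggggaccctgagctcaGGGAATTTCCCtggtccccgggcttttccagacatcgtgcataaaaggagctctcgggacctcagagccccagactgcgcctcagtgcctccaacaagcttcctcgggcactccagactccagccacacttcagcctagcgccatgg
The same 11 letters, GGGAATTTCCC, stood in both promoters, beginning 71 bases before the start of Cxcl1 and 97 before that of Cxcl2. This motif was present in 2 of the 6 chemokine promoters at hand among the 8 chemokine genes called higher, in 3 of 89 promoters of all genes called higher, and in 1.32% of the promoters of compared genes. Cxcl1, just short of 2-fold, is not among the genes called higher in these counts. In the promoter of the acute-phase gene Saa3, capitals mark the letters TTNNGCAA of a C/EBP element, which either strand of 9.03% of the promoters of compared genes held.
Saa3 (chr7:46715627-46715926, minus strand): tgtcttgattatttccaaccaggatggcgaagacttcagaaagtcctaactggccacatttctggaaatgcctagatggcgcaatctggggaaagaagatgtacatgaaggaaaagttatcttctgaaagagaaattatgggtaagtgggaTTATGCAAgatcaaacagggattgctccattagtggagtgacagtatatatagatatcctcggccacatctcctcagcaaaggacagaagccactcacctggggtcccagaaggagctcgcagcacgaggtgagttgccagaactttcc
Of the genes called higher 20.2% held it, and of those called lower 15.2%. A match is a description of these letters and no evidence that a factor binds there.

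The 2 arrays were similar over most genes. Across the 5559 genes above background on both, the levels correlated with Pearson's r of 0.94 (0.96 for the pair at 3 h), a description over genes that share 2 arrays. At 24 h 80.3% of the compared genes differed by less than 0.5 on the log2 scale, the median difference was -0.004, and the robust SD was 0.34, against 0.28 at 3 h. Called higher were 115 genes (1.61%) and called lower 190 (2.66%), and at 3 h 78 (1.14%) and 67 (0.975%). In 75 higher and 90 lower genes 1 array was below background, and their bounds can lie under 2-fold. Among genes above background on both arrays 40 (0.72%) were higher and 100 (1.8%) lower. Just past the limit lay Golga3, at 7.38 in the Xpa mutant and 6.38 (below background) in WT, and Nsdhl, at 8.26 and 9.26, and just short of it Il6, with a difference of 0.99. The share of higher genes depended on the scaling: on the bacterial RNA spiked into every sample, with the median of all genes set to 0, 173 genes were higher and 164 lower. Without that centring, scaling on the spikes gave the median gene a difference of -0.56 (-0.17 at 3 h), so every difference here is relative to the median gene.

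**Figure D1:**
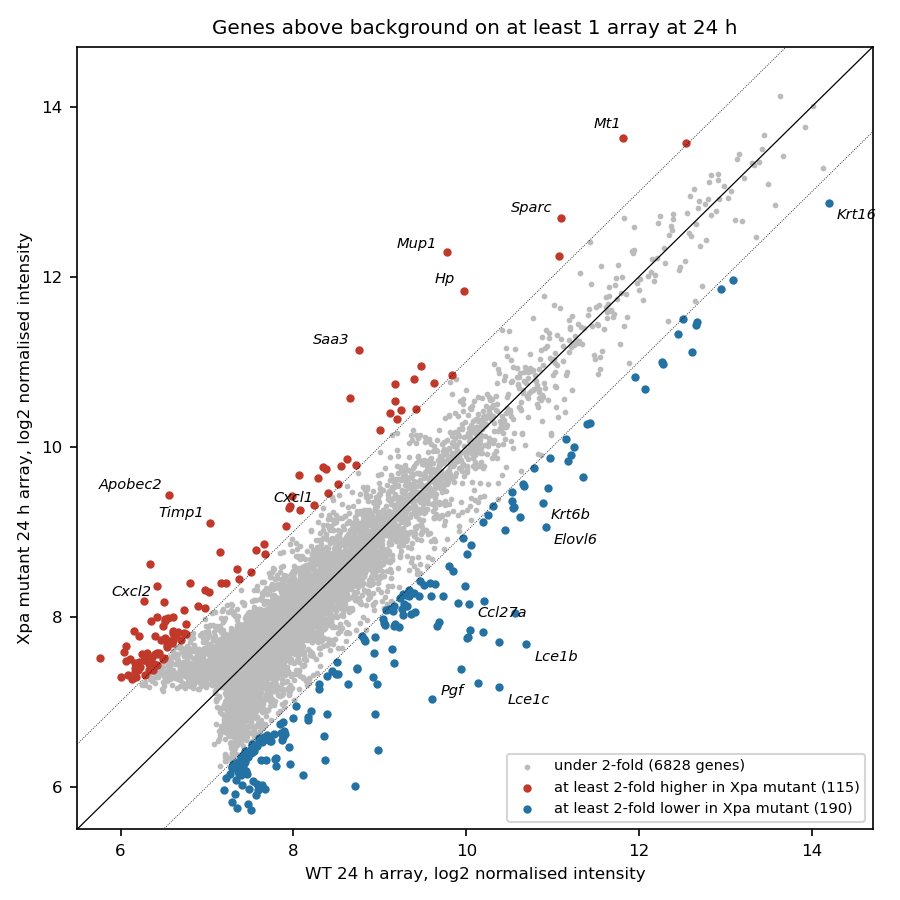
Level of each compared gene on the Xpa mutant array (vertical axis) and on the WT array (horizontal axis) at 24 h, both as log2 normalised intensity, with dotted lines at 2-fold. The 115 genes called higher (red) include Mt1, Sparc, Mup1, Hp and Saa3 at high levels and many near background, and the 190 called lower (blue) reach up to Krt16.

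The spot for Xpa itself read 6.42 on the Xpa mutant array and 7.55 on that of WT at 24 h, 6.64 and 7.13 on the Xpa mutant and WT arrays at 3 h, and 7.49 without UV. It was above background only on the WT arrays at 24 h and without UV, so at 24 h Xpa was at least 1.42-fold lower in the mutant. The order follows the labels, at levels close to background, and where the spot lies relative to the mutated part of the gene is not known here. The epidermal keratins Krt5 and Krt14 and the cornified envelope gene Lor were above background on all 5 arrays. A spot for Eif2s3y, a gene of the Y chromosome, read 7.99 on the Xpa mutant array at 24 h, where it was above background, against 6.42 on the WT array, 6.47 and 6.59 on the Xpa mutant and WT arrays at 3 h, and 6.53 without UV, all below background. The Y-linked Ddx3y read 7.16 on the Xpa mutant array and 6.19 on that of WT at 24 h, both below background, and Kdm5d and Uty were below background on every array. The brighter of 2 spots for Xist, the RNA that silences an X chromosome in females, read 6.41 on the Xpa mutant array and 7.12 on that of WT at 24 h, 7.25 and 7.59 on those at 3 h, and 7.39 without UV, and was above background only on the WT array at 3 h and the array without UV. Only the Eif2s3y spot was above background on the Xpa mutant array at 24 h and on no other. The sex of the animals is not in the labels, and the part of sex in any difference below was not tested.

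Genes of the cornified layer held the largest differences. Of 36 compared, 22 were lower and 0 higher, with a median of -1.15, against 2.66% of all genes lower and a median of -0.004. The list was as low over the 30 members above background on both arrays, where 18 were lower and the median was again -1.15. At 3 h its median was 0.04 with 0 of 32 members past 2-fold. Summed over members, the linear intensity was 38553 units on the Xpa mutant array and 73453 on that of WT at 24 h, 87525 and 82923 at 3 h, and 102217 without UV. In bulk skin, fewer cells of a type and less RNA per cell cannot be told apart, here and for every list below.

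The late cornified envelope group 1 (Lce1) genes encode small cysteine-rich proteins that are added to the envelope in the last steps of keratinocyte maturation. All 11 compared of 13 on the array were lower, with differences between -3.21 and -1.76 and a median of -2.53. Their levels ran from 6.01 (below background) to 8.04 on the Xpa mutant array and from 8.71 to 10.69 on the WT array, so the 2 ranges did not overlap. On the mutant array Lce1a1, Lce1c and Lce1l were below background. At 3 h the same 11 differences lay between 0.19 and 0.63. Lce1 genes are near copies of each other, and whether the spots tell them apart is not known here, so the 11 values are not independent.

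Lce1b read 7.68 on the Xpa mutant array and 10.69 on that of WT at 24 h, 11.23 and 11.04 on the Xpa mutant and WT arrays at 3 h, and 11.49 without UV, and was 8.09-fold lower in the mutant at 24 h. Lce1c read 7.17 (below background) and 10.38 at 24 h in the same order, 11.01 and 10.64 at 3 h, and 11.21 without UV, at least 9.25-fold lower. On both spots only the Xpa mutant array at 24 h stood apart. Lce1i was 6.40-fold, Lce1m 5.86-fold, Lce1d 5.77-fold, Lce1h 5.19-fold, Lce1f 4.80-fold and Lce1e 4.61-fold lower. Lce1m differed from its neighbours in that WT was low too, at 7.39 on the Xpa mutant array and 9.94 on the WT array, against 12.17 and 11.53 at 3 h and 12.14 without UV. Lce1a1, Lce1l and Lce1a2 completed the group, at least 3.74-fold, at least 3.17-fold and 3.38-fold lower.

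The group 3 genes (Lce3), which are induced when the barrier is broken, were lower by less. Of 5 compared, 3 were lower, and the median was -1.06 with a range from -1.43 (Lce3e) to -0.72 (Lce3b). Their levels ran from 7.21 to 10.09 on the Xpa mutant array and from 8.63 to 11.15 on the WT array, against 5.93 (below background) to 8.87 without UV. Lce3a, Lce3e and Lce3f were below background without UV. Filaggrin (Flg), which bundles keratin filaments, read 10.97 in the Xpa mutant and 12.28 in WT at 24 h, and 12.28 and 12.39 at 3 h, and loricrin (Lor), the main protein of the envelope, 8.38 and 9.64 at 24 h and 10.70 and 10.42 at 3 h. Flg was thus 2.49-fold and Lor 2.39-fold lower in the mutant. Asprv1, the protease that processes filaggrin, was 2.82-fold lower, and Klk6 and Klk7, kallikrein proteases, of which Klk7 cuts the bonds between cornified cells, 2.64-fold and 2.21-fold. All 6 kallikreins compared lay below 0 (median -1.19) and 4 were called lower.

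Keratins of the layers beneath did not share this size of difference. Krt10 and Krt1, the keratins of the suprabasal cells, read 12.47 and 11.99 in the Xpa mutant, against 12.60 and 11.80 in WT, differences of -0.13 and 0.20. Krt5 and Krt14, the keratins of basal cells, read 12.66 and 12.46 in the Xpa mutant, against 13.11 and 13.35 in WT, differences of -0.45 and -0.89. Of 17 basal keratinocyte genes 0 were past 2-fold, with a median of -0.43. Trp63, the factor that keeps basal cells in their state, differed by -0.31 on its brighter spot and by -0.75 on the other. Of 27 junction genes 2 were lower (median -0.33), both of them gap junction connexins, Gjb2 at least 1.98-fold and Gjb5 at least 1.25-fold.

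Stress keratins and small proline-rich genes, which activated epidermis switches on after wounding or UV, were lower for 7 of 21 compared and higher for 0, with a median of -0.45. At 3 h the list stood no nearer to 0, with 6 of 21 lower and a median of -0.62. Krt16 read 12.87 on the Xpa mutant array and 14.19 on that of WT at 24 h, 11.57 and 12.53 on the Xpa mutant and WT arrays at 3 h, and 9.66 without UV, and was 2.5-fold lower in the mutant at 24 h. Krt6a read 11.32 and 12.45 at 24 h in the same order, 9.24 and 9.30 at 3 h, and 7.72 without UV, 2.18-fold lower. For both genes the Xpa mutant array at 24 h lay above the arrays at 3 h and without UV, and below the WT array at 24 h. Krt6b was 2.91-fold, Krt17 2.36-fold, Sprr1b 2.31-fold and Sprr1a 2.02-fold lower, and the protease inhibitor Serpinb3b 2.40-fold. The Sprr2 genes were different: 0 of 8 passed 2-fold at 24 h (median -0.11), while at 3 h their median was -1.11.

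**Figure D2:**
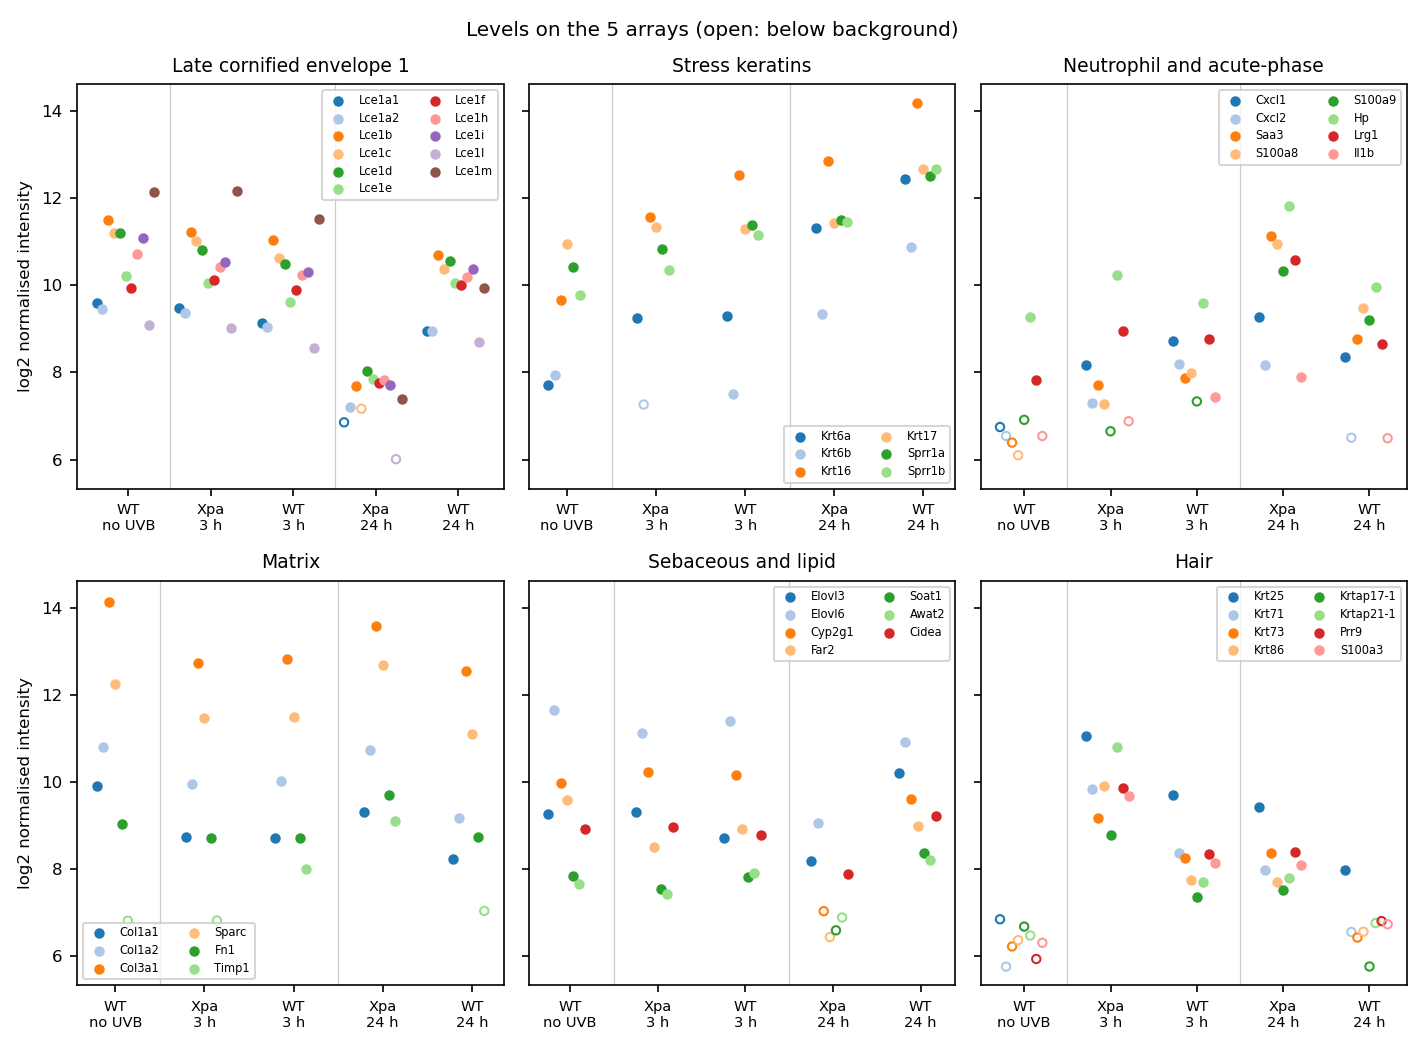
Log2 normalised intensity of single genes (colours) on each of the 5 arrays, with open symbols where the spot was below background. The Lce1 genes stand lowest in Xpa mutant skin at 24 h, the stress keratins stand highest on that of WT at 24 h, and the inflammatory genes other than Cxcl2 stand highest on the Xpa mutant array at 24 h.

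Sebaceous gland genes, which make the lipids of sebum, were the next list on the lower side by median over all compared members. Of 19 compared, 10 were lower and 0 higher, with a median of -1.02. Over the 13 above background on both arrays 6 were lower and the median was -0.48, and with no filter on dim spots the median was -0.29. Their summed linear intensity was 4117 units on the Xpa mutant array and 9642 on that of WT at 24 h, 8650 and 9392 at 3 h, and 10821 without UV. Elovl3, which lengthens very long fatty acids in the gland, read 8.19 in the Xpa mutant and 10.20 in WT at 24 h, 9.30 and 8.72 at 3 h, and 9.27 without UV, and was 4.04-fold lower. The WT value at 24 h was the highest of the 5. Far2, which makes fatty alcohols for wax esters, read 6.43 (below background) in the Xpa mutant and 8.98 in WT, at least 3.81-fold lower, and Cyp2g1 7.03 (below background) and 9.61, at least 5.90-fold. Elovl6 was 3.66-fold lower, Cidea, a lipid droplet protein, 2.54-fold, and Soat1, which esterifies cholesterol, at least 2.48-fold. Scd1, a desaturase of sebocytes, differed by only -0.27, and Pparg by -0.17.

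Sterol synthesis genes shared the direction. Their median lay nearer to 0 than that of sebaceous genes over all compared members. It did not over members above background on both arrays (-0.52 against -0.48), nor with no filter on dim spots (-0.48 against -0.29). Of 23 compared, 4 were lower and 0 higher, with a median of -0.52, against 0.15 at 3 h. Of these, 8 were above background on the WT array alone. Among the 15 above background on both arrays 2 were lower and 13 lay below 0, and the median was again -0.52. The 4 were the squalene epoxidase Sqle (at least 1.79-fold), the regulator Srebf2 (at least 1.75-fold), Msmo1 (2.08-fold) and Nsdhl (2.00-fold). Adipocyte genes had 0 of 14 past 2-fold (median -0.20, and -0.05 over the 11 above background on both arrays), with the adipokine gene Adipoq at 10.23 in the Xpa mutant and 10.11 in WT.

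Of the inflammatory lists, CXC chemokines had the largest share called higher over all compared members. This order rests on genes above background on the mutant array alone, which were 4 of the 8 compared. Over members above background on both arrays, 4 of 10 other chemokines and 2 of 4 neutrophil markers were higher, against 1 of 4 CXC chemokines. Of 8 CXC chemokines compared, 4 were higher and 0 lower, with a median of 0.99, against 1.61% of all genes higher. Of the 4 above background on both arrays 1 was higher and the median was 0.66, and with no filter on dim spots the median was 0.43. At 3 h the median of the list was 0.01 with 0 past 2-fold. Cxcl1, the neutrophil attractant whose promoter is shown above, read 9.27 on the Xpa mutant array and 8.35 on that of WT at 24 h, 8.17 and 8.72 on the Xpa mutant and WT arrays at 3 h, and 6.75 (below background) without UV. It was 1.90-fold higher in the mutant at 24 h, short of 2-fold, and the mutant value at 24 h was the highest of the 5. Cxcl2, which acts on the same receptor, read 8.17 and 6.50 (below background) at 24 h in the same order, 7.30 and 8.19 at 3 h, and 6.54 (below background) without UV, at least 2.18-fold higher in the mutant. Its level on the mutant array at 24 h was close to that on the WT array at 3 h.

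The others of the group were Cxcl3, at least 1.83-fold higher, and the platelet chemokines Ppbp, at least 2.96-fold, and Pf4, 2.08-fold. Ppbp was above background only on the Xpa mutant array at 24 h, at 8.61. Neither Cxcl5 nor the receptor gene Cxcr2 was above background on either array. Among 10 other chemokines 4 were higher and 1 lower (median 0.52, and -0.46 at 3 h). The higher genes encode attractants of monocytes and macrophages, Ccl6 at 2.64-fold, Ccl7 at 2.53-fold, Ccl9 at 2.21-fold and Ccl2 at 2.03-fold. The lower gene was Ccl27a, by which keratinocytes attract skin-homing T cells, at 3.70-fold.

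Alarmin and acute-phase genes differed among themselves, with 6 of 22 higher, 1 lower, 9 below 0 and a median of 0.16. Saa3, a serum amyloid made at sites of inflammation, read 11.13 in the Xpa mutant and 8.76 in WT at 24 h, 7.72 and 7.88 at 3 h, and 6.39 (below background) without UV, and was 5.18-fold higher. S100a8, a calcium-binding alarmin that neutrophils and stressed keratinocytes make, read 10.95 and 9.48 at 24 h, 7.28 and 7.99 at 3 h, and 6.10 (below background) without UV, 2.76-fold higher, and its partner S100a9 was 2.18-fold higher. For both Saa3 and S100a8 the 2 arrays at 24 h were above all 3 others. Haptoglobin (Hp), which binds free haemoglobin, was 3.62-fold higher and the antimicrobial Defb3 at least 2.34-fold. The sixth was S100a3, at least 2.04-fold, a member of the S100 family that is made in the hair cuticle. Lrg1, which is not on the list, a secreted glycoprotein of inflammation and vessel growth, was 3.79-fold higher. The lower gene was Chil1, a chitinase-like protein, at 2.49-fold.

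Cytokines were mostly near background. Il1b read 7.89 on the Xpa mutant array and 6.49 (below background) on that of WT at 24 h, at least 1.80-fold higher, Il6 7.97 and 6.98 (below background), at least 1.89-fold, and Il19 was at least 1.67-fold higher. Il1b and Il19 were the 2 of 15 interleukin, TNF and colony-stimulating factor genes called higher, with 0 lower and a median of 0.22. Il1r1, the receptor of interleukin 1, was at least 2.40-fold higher. Tnf and the prostaglandin synthase Ptgs2 were below background on both arrays, and 0 of 12 prostaglandin and lipoxygenase genes passed 2-fold (median -0.21).

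Of 7 neutrophil markers compared among 24 on the array, 3 were higher and 0 lower: Retnlg, at least 2.19-fold, and S100a8 and S100a9, which are on the alarmin list too. Their summed intensity was 3885 units on the Xpa mutant array and 1716 on that of WT at 24 h, against 607 and 777 at 3 h and 387 without UV. S100a8 and S100a9 made up 3161 of the units on the Xpa mutant array and 1204 on that of WT at 24 h, and the other markers 724 and 512. The median of the list was 0.40, with 2 of 7 below 0, and 0.09 with no filter on dim spots. Macrophage markers did not share the direction as a list (19 compared, 1 higher, 1 lower, median 0.04): Cd14, a receptor for bacterial lipids, was 2.28-fold higher, and Retnla, a product of alternatively activated macrophages, 3.26-fold lower. The complement genes C1qa, C1qb and C1qc differed by 0.01, 0.14 and -0.07. Langerhans cell and antigen presentation genes had a median of -0.44 over 14 (-0.48 over the 9 above background on both arrays, and -0.10 with no filter), with 1 lower, the class II gene H2-Eb1 at 2.29-fold. Lymphocyte and mast cell markers had 0 of 8 past 2-fold (median 0.08). Of 18 interferon response genes 7 were above background on the mutant array alone. The list had a median of 0.38, of 0.30 over the 11 above background on both arrays and of 0.14 with no filter, with 2 higher, Ifitm1 at 2.53-fold and Oas2 at least 1.39-fold.

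Matrix genes of the dermis lay above the median gene, most of them by less than 2-fold. Of 15 collagen chains compared, 3 were higher and 0 lower, with a median of 0.53, against -0.07 at 3 h. All 11 chains above background on both arrays lay above 0, with a median of 0.61, and with no filter on dim spots the median was 0.31. Col1a2, a chain of the main fibrillar collagen, read 10.73 on the Xpa mutant array and 9.18 on that of WT at 24 h, 9.96 and 10.02 on the Xpa mutant and WT arrays at 3 h, and 10.80 without UV, and was 2.93-fold higher in the mutant at 24 h. The mutant value lay near that of unirradiated WT skin, and the WT value at 24 h was the lowest of the 5. Col1a1 (2.11-fold higher) and Col3a1 (2.05-fold) had their lowest value on that of WT at 24 h too, at 8.23 and 12.54. The summed intensity of collagen chains was 19800 units on the Xpa mutant array and 9898 on that of WT at 24 h, 11620 and 12642 at 3 h, and 26010 without UV.

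Of 39 other dermal matrix and fibroblast genes 6 were higher and 0 lower, with a median of 0.48, against 0.00 at 3 h. Of the 32 above background on both arrays 31 lay above 0 and 2 were higher, with a median of 0.46. Sparc, a collagen-binding glycoprotein, read 12.68 in the Xpa mutant and 11.09 in WT at 24 h, 11.47 and 11.50 at 3 h, and 12.24 without UV, 3.01-fold higher, and here the mutant value was the highest of the 5. The others were Pdpn, a glycoprotein of fibroblasts and lymph vessels (2.26-fold), the proteoglycan Vcan (at least 2.11-fold), the tenascin Tnxb (at least 1.45-fold), the thrombospondin Thbs3 (at least 1.51-fold) and the hyaluronan synthase Has1 (at least 1.27-fold). Among 23 matrix proteases and inhibitors 6 were higher and 2 lower (median 0.47, and 0.44 over the 17 above background on both arrays). Timp1, an inhibitor of matrix metalloproteases, was at least 4.14-fold higher and Serpina3n, an inhibitor of serine proteases, 2.68-fold. Mmp12, the macrophage elastase, was at least 1.65-fold higher, Plaur, the urokinase receptor, at least 1.72-fold, and Serpinb2 and Serpinb8 2.20-fold and at least 1.93-fold lower.

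Of other compartments of the skin piece, the endothelial and muscle lists had 1 and 2 genes called higher, against 1.61% of all genes. Of 12 endothelial and pericyte genes compared 1 was higher, Pdpn. The 7 above background on both arrays all lay above 0, with a median of 0.44, and with no filter on dim spots the median of the list was 0.28. Skeletal muscle genes had 2 of 31 higher and a median of 0.34 (0.30 over the 29 above background on both arrays), at a summed intensity of 62311 units in the Xpa mutant and 52458 in WT at 24 h. Of the 31 muscle genes 28 lay above 0, and at 3 h the median of the list was 0.35. Ckm, the creatine kinase of muscle, had the lowest difference of the list at 24 h, -0.34. It read 10.70 in the Xpa mutant and 11.04 in WT. Housekeeping genes had a median of -0.03 over 11, cytoplasmic ribosomal protein genes of 0.10 over 54 and respiratory chain genes of 0.01 over 60, with 0 past 2-fold in each. Epidermal lists thus lay below and dermal and vessel lists above the median gene on the same pair of arrays, and the part of tissue make-up in either direction was not tested.

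**Figure D3:**
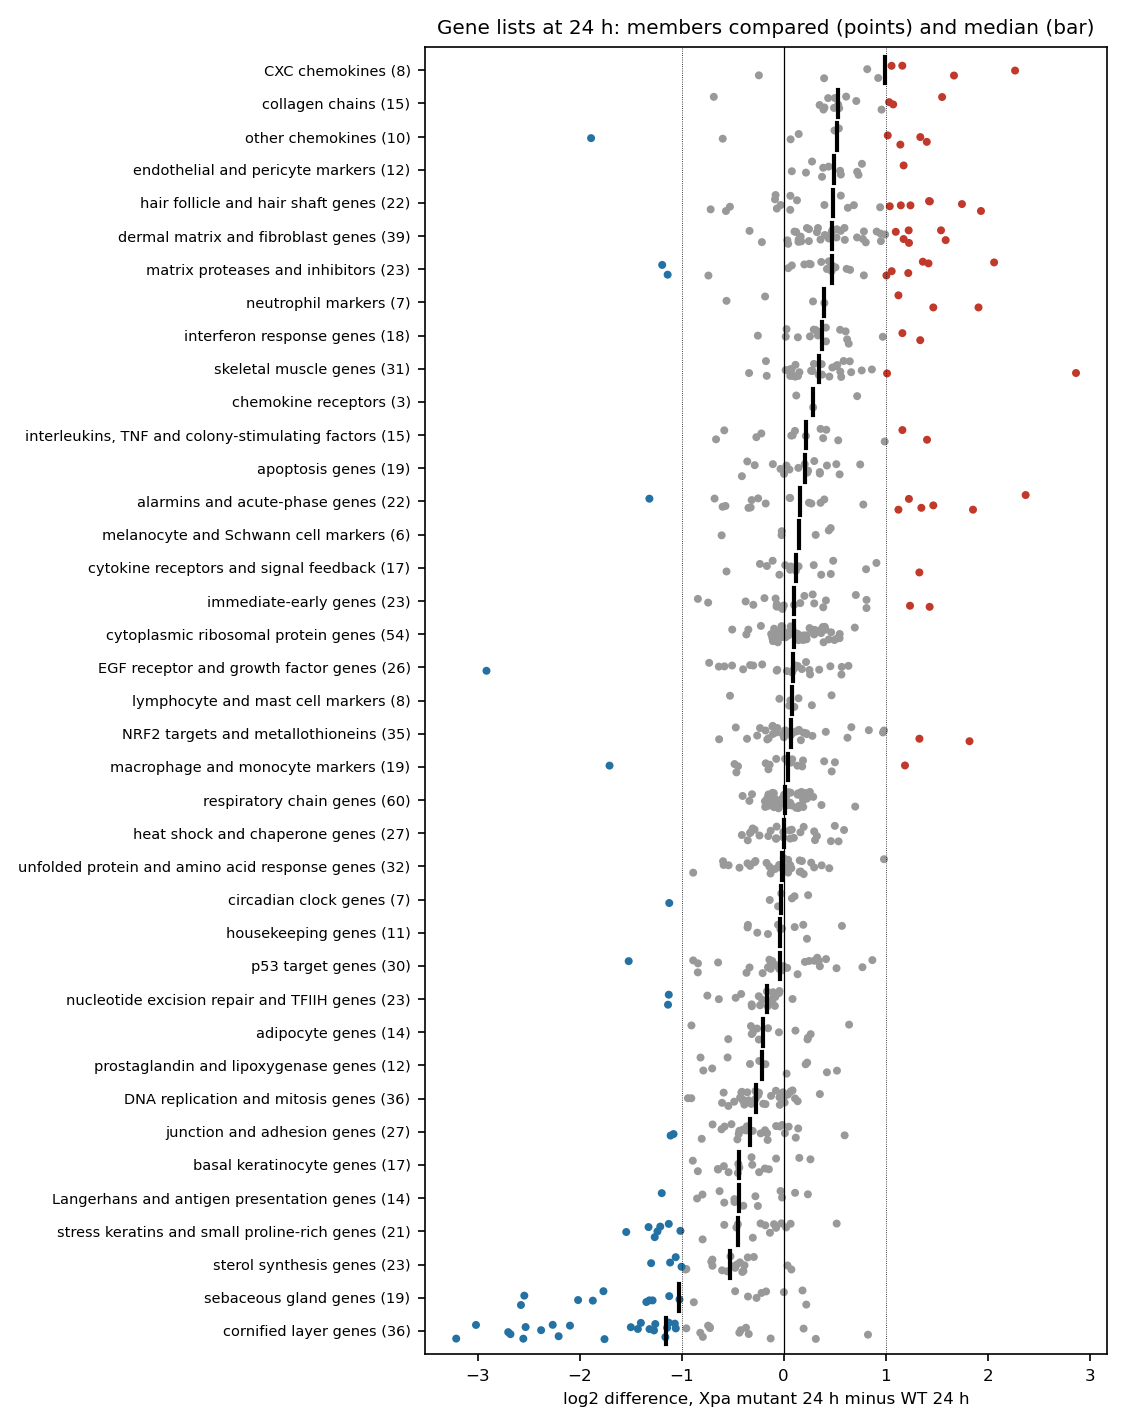
Log2 difference between the Xpa mutant and the WT array at 24 h for each compared member (points, with number in brackets) of 39 gene lists, ordered by median (black bar), with dotted lines at 2-fold. Cornified layer and sebaceous gland genes have medians of -1.15 and -1.02, CXC chemokines of 0.99, and respiratory chain and housekeeping genes stay close to 0.

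DNA damage genes gave small differences. Of 30 p53 targets compared 0 were higher and 1 lower (Trp53i11, at least 1.36-fold), with a median of -0.03. Cdkn1a, the cell cycle inhibitor that p53 switches on, read 11.18 on the Xpa mutant array and 10.93 on that of WT at 24 h, 10.70 and 10.91 at 3 h, and 9.86 without UV, so the genotypes lay close together at each time and all irradiated skin lay above unirradiated skin. Mdm2, another p53 target, was below background on both arrays. Among 23 genes of nucleotide excision repair and TFIIH, 6 of them above background on the WT array alone, the median was -0.16. Of the 17 above background on both arrays 16 lay below 0, with a median of -0.11. Called lower were 2, Xpa itself and Gtf2h5, a small subunit of TFIIH. On its brighter spot Gtf2h5 read 11.96 in the Xpa mutant and 13.09 in WT at 24 h, 11.12 and 11.68 at 3 h, and 10.70 without UV, 2.19-fold lower. With the mean of its 2 spots the difference at 24 h was -0.48. DNA replication and mitosis genes had 0 of 36 past 2-fold and a median of -0.27, and 24 of the 30 above background on both arrays lay below 0. Apoptosis genes had 0 of 19 past 2-fold (median 0.21).

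Stress pathways other than metallothioneins differed little. Mt1, which binds zinc and other metals, read 13.63 on the Xpa mutant array and 11.81 on that of WT at 24 h, 12.68 and 13.63 on the Xpa mutant and WT arrays at 3 h, and 11.66 without UV, 3.54-fold higher in the mutant at 24 h. The mutant at 24 h matched WT at 3 h, while WT at 24 h was close to unirradiated skin. Mt2 read 9.28 and 7.95 at 24 h in the same order, 8.42 and 9.15 at 3 h, and 7.81 without UV, 2.52-fold higher at 24 h. They were the 2 of 35 NRF2 target and metallothionein genes past 2-fold (median 0.07). Heat shock and unfolded protein response genes had 0 of 27 and 0 of 32 past 2-fold, with medians of -0.001 and -0.01. Of 23 immediate-early genes 2 were higher, the nuclear receptor Nr4a1 (at least 1.86-fold) and Cebpd (2.36-fold), a factor of the acute-phase response, with a median of 0.10. Among 26 growth factor genes 1 was lower, Pgf, a vessel growth factor, at least 7.53-fold: 7.22 (below background) in the Xpa mutant and 10.13 in WT at 24 h, against 10.13 and 9.97 at 3 h and 10.49 without UV. Of 7 clock genes 1 was lower, Rora, by 2.18-fold on its brighter spot, while its other spot differed by 0.16.

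The highest and lowest of the remaining genes belong to no list. Mup1, a major urinary protein that carries pheromones, read 12.29 on the Xpa mutant array and 9.77 on that of WT at 24 h, 12.66 and 10.85 on the Xpa mutant and WT arrays at 3 h, and 8.38 without UV, and was 5.72-fold higher in the mutant at 24 h. Both mutant values were above all 3 WT values. A second Mup1 spot was below background on all 5 arrays, Mup genes are near copies of each other and differ in level between the sexes in mouse liver, and the reading is uncertain for these reasons. Serpina3b was at least 3.04-fold and Angptl4, an inhibitor of lipoprotein lipase, 3.01-fold higher. Tlcd4 was 4.79-fold lower, at 7.76 in the Xpa mutant and 10.02 in WT.

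The genotype difference at 24 h was then set beside that at 3 h, which uses other arrays. Of 6188 genes compared at both times, 14 were higher at both, which is 17.9% of the 78 higher at 24 h and 34.1% of the 41 higher at 3 h. Lower at both were 3, which is 1.95% of 154 and 6.25% of 48. In opposite directions lay 3 genes. Of all genes compared at a time, 1.61% were higher and 2.66% lower at 24 h, and 1.14% and 0.975% at 3 h. Over the 6188 genes the differences at the 2 times correlated with Pearson's r of -0.09. Asking for signal above background on both arrays left 5 genes past 2-fold in the same direction and 0 in opposite directions. The genes higher at 24 h had a median of -0.07 at 3 h, and those lower at 24 h of 0.11.

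Among those higher at both times were many hair genes: the root sheath keratins Krt25 and Krt71, the shaft keratin Krt86, the keratin-associated genes Krtap16-1, Krtap17-1 and Krtap21-1, and S100a3, a calcium-binding protein of the hair cuticle. Of these only Krt25 was above background on both arrays at 24 h. The rest were below background on the WT array at 24 h, so their folds are bounds. Krt71 was at least 1.91-fold, Krt86 at least 1.58-fold and S100a3 at least 2.04-fold higher at 24 h. Krtap16-1, Krtap17-1 and Krtap21-1 were at least 1.33-fold, at least 1.37-fold and at least 1.68-fold higher. Krt25 read 9.41 in the Xpa mutant and 7.98 in WT at 24 h, 11.05 and 9.69 at 3 h, and 6.84 (below background) without UV, so the mutant was higher at each time and both genotypes were higher at 3 h. Of 22 hair genes compared at 24 h 7 were higher (median 0.48), and the 10 above background on both arrays had a median of 0.02. At 3 h 24 of 41 were higher, with a median of 1.17. The summed intensity was 5407 units on the Xpa mutant array and 3918 on that of WT at 24 h, 18679 and 6177 at 3 h, and 4152 without UV. Hairless mice lose their coat after the first growth phase, and the follicle state of each skin piece is not given here.

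Besides these, the genes higher at both times included Mup1, Apobec2, Crym, Nipsnap3b, Prr9 and the predicted gene Gm11563. Crym, Prr9 and Gm11563 were below background on the WT array at 24 h. They were at least 1.56-fold, at least 2.54-fold and at least 1.67-fold higher at that time. Apobec2, which muscle makes and which is related to cytidine deaminases, read 9.43 on the Xpa mutant array and 6.57 (below background) on that of WT at 24 h, 8.72 and 5.97 (below background) at 3 h, and 6.16 (below background) without UV. It was above background in mutant skin only, at least 5.22-fold higher at 24 h and at least 3.13-fold at 3 h. Nipsnap3b was likewise above background on the mutant arrays only. Lower at both times were Ccl27a, Rpp25l and Serpinb2. Ccl27a read 8.15 in the Xpa mutant and 10.03 in WT at 24 h, 10.00 and 11.79 at 3 h, and 11.83 without UV, 3.70-fold and 3.45-fold lower in the mutant, and has near copies in the mouse genome.

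Ccl27a, Rpp25l, Mup1 and Nipsnap3b lie on the chromosome that carries Xpa, where a mutant line can keep sequence of the strain in which the allele was made. They are among the 17 genes past 2-fold in the same direction at both times. That chromosome held 444 of the 7128 compared genes with a known chromosome. Over all genes past 2-fold at 24 h, whatever their value at 3 h, the shares were equal: 19 of 444 (4.28%) there and 286 of 6684 (4.28%) elsewhere. Among the 50 protein-coding genes on each side of Xpa 28 were compared, 2 passed 2-fold, and the median difference was 0.07. The part of strain sequence in single genes was not tested.

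**Figure D4:**
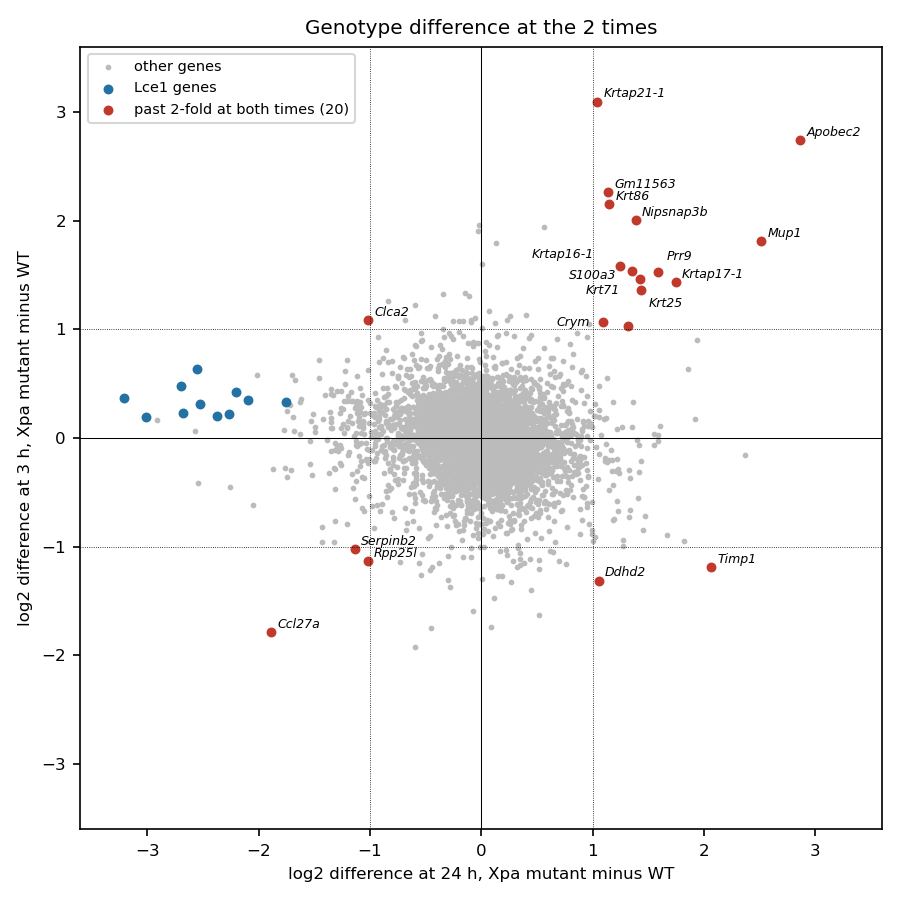
Log2 difference between the Xpa mutant and WT at 24 h (horizontal axis) and at 3 h (vertical axis) for the 6188 genes compared at both times, with dotted lines at 2-fold. The 20 genes past 2-fold at both times are red, 14 of them at the upper right, and the 11 Lce1 genes (blue) lie far to the left between 0.19 and 0.63 at 3 h.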

How the data were processed

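Labelled RNA was hybridised to 1-colour CodeLink arrays with Cy5. Per the file headers, spots were quantified with CodeLink Expression Analysis 5.0.0.31312. The deposited scanner tables give for each spot a mean intensity, a local background intensity and flags. The authors' raw intensity was within 0.01 of spot mean minus background in 180603 of 180603 unmasked spots. Their normalized table, used as an alternative, holds linear intensity with a median of 46.3 on every array, values down to 0.001, no centring per gene and the direction of the scanner values. The series' value table equals it in 181135 of 181135 cells. The software behind it is not stated in the sources used here.

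These scanner values were background-corrected by the normexp model (offset 50) of limma 3.58.1, run in R 4.3.3. Masked, irregular and P-flagged spots were set to missing, gene spots were quantile normalised over the 5 arrays, and log2 was taken. A gene is its brightest spot by mean level. Above background means no low-signal flag, and between 8234 and 8816 gene spots were so per array. Median local background was 92 to 94 units. No spot compared was saturated (0). The number of arrays limits the precision. The spread between spots of a spiked control within an array was 0.13 (median SD, log2), which is technical only. Summed intensities of a list are over members that any of the 5 arrays measured above background, with the offset taken off.

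Spots were named through the platform annotation with symbols updated by Entrez ID (21615 with 1 symbol, 681 with several), then by RefSeq accession (535), and 12136 stayed unnamed here. The labels name no genome build, so coordinates appear only with the RefSeq promoters. Members and lists were chosen with earlier results of these data known. Named genes are the 15 highest and 15 lowest by bound, up to 6 members past 2-fold of each list or else the 2 that differed most, a fixed set around Cxcl1, skin keratins and the targeted gene, and genes past 2-fold at both times. Others are named to describe a list or family, after their values were seen. A gene that met the rule is not reported here. The quantile step and the 2-fold call alone were rerun on simulated arrays with known changes. Background correction, flags, spot choice and naming were not tested in that way. Alternatives were another offset, no background correction, the authors' table, other scalings, other filters and the mean of a gene's spots. Python 3.11.15 with pandas 2.3.3 and numpy 2.4.6 was used.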

Additional observations from a re-analysis of the deposited data

Results flagged for a closer look

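In 3 genes the difference between Xpa mutant and WT passed 2-fold in opposite directions at 24 h and at 3 h, with 1 array per group, and the difference between the times was not tested. Timp1 differed by 2.06 at 24 h and by -1.18 at 3 h. It was above background on the Xpa mutant array at 24 h (9.10) and not on the WT array of that time, and at 3 h on the WT array and not on the mutant array. Ddhd2, a phospholipase gene, differed by 1.06 at 24 h and by -1.31 at 3 h. Clca2, a gene of the chloride channel regulator family, differed by -1.02 at 24 h and by 1.09 at 3 h. In each of the 3 genes the dimmer array was below background at both times, so these differences rest on levels below background. The bounds reached 2-fold only for Timp1 at 24 h, at least 4.14-fold higher, against at least 1.92-fold lower at 3 h. For Ddhd2 they were at least 1.31-fold higher and at least 1.21-fold lower, and for Clca2 at least 1.39-fold lower and at least 1.45-fold higher.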

How the results depend on the processing

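The main counts are 115 genes higher and 190 lower at 24 h, 17 past 2-fold in the same direction at both times and 3 in opposite directions. In the same order the authors' deposited table gave 284, 395, 33 and 30, no background correction 59, 103, 9 and 0, and asking for signal above background on both arrays 40, 100, 5 and 0. An offset of 16 gave 238 higher, 316 lower and 15 in opposite directions. Scaling on the spiked controls, relative to the median of all genes, gave 173 higher. Without that centring, an alternative added after seeing the data, 27 were higher, 832 lower and 5 in opposite directions, and 21 of the 23 list medians above 0 turned below 0. Those among them of at least 0.3 in the main setting became: other chemokines -0.063, hair -0.011, skeletal muscle -0.38, collagen chains -0.025, dermal matrix -0.090, matrix proteases -0.12, neutrophil markers -0.078 and interferon response -0.15. Median scaling, cyclic loess, quantile normalisation of the 2 arrays of a time alone, no filter on dim spots and the mean of a gene's spots kept the 4 counts within 1.5 times. List medians moved more: of 39 lists, the 17 with a median of at least 0.3 either way kept its sign under the alternatives other than uncentred spike scaling, but with no filter on dim spots 10 medians moved, each toward 0. Sebaceous genes then had a median of -0.29, CXC chemokines 0.43, stress keratins -0.26, hair 0.22, collagen chains 0.31, neutrophil markers 0.09, Langerhans genes -0.10, endothelial genes 0.28, interferon response genes 0.14 and chemokine receptors 0.10. Of 99 named genes past 2-fold, 99 kept their direction and 66 stayed past 2-fold under each of the other settings in which they had a value, uncentred spike scaling left out. With the mean of a gene's spots, some genes with several spots fell short of 2-fold. Ccl27a then differed by -0.92, Gtf2h5 by -0.48, Rora by -0.48, Srebf2 by -0.55 and Vcan by 0.55. No paired analysis was possible because each group has 1 array, and no replicate could be left out. Low signal limits most genes called higher.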

Other observations

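Some lipid and barrier genes outside the fixed lists were also lower. They were chosen after their values were seen, so their direction is no further support for the lists above. Of all compared genes 2.66% were lower. Of 3 ceramide synthase genes compared 0 passed 2-fold, with Cers2 at 0.64, Cers4 at -0.51 and Cers5 at -0.53. Nipal4, whose loss causes ichthyosis in humans, read 7.45 on the Xpa mutant array and 9.17 on the WT array at 24 h, 9.41 and 9.11 at 3 h, and 9.68 without UV, 3.28-fold lower in the mutant at 24 h. Fa2h, which hydroxylates the fatty acids of ceramides, was 2.55-fold lower, Gltp, a glycolipid transfer protein, 2.68-fold, and Elovl4, which makes the ultra-long fatty acids of skin ceramides, 2.41-fold. Sptssa, a subunit of the enzyme that begins sphingolipid synthesis, was 2.08-fold lower and Sult2b1, which makes cholesterol sulphate, 2.31-fold. Aqp3, the glycerol and water channel of keratinocytes, was 2.69-fold lower. The fatty acid enzymes Hacd2 and Slc27a4 have 2 spots each, and their differences ran from -1.49 to -0.74 and from -1.07 to -0.71. Kprp, a keratinocyte proline-rich protein of the same gene cluster as the Lce1 genes, was 3.36-fold lower.

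Among genes higher in the mutant, Ptx3 and Lbp, soluble proteins that bind microbes, were at least 1.90-fold and at least 2.25-fold higher, and Tnfaip6, which modifies hyaluronan in inflamed tissue, at least 1.70-fold. Gfpt2 and Uap1, enzymes that make the sugar precursor of hyaluronan, were 2.09-fold and 2.26-fold higher. Uap1 read 10.43 in the Xpa mutant and 9.25 in WT at 24 h, 9.57 and 10.32 at 3 h, and 8.83 without UV, and its second spot differed by 0.75 at 24 h. Serglycin (Srgn), the proteoglycan of leukocyte granules, was 2.27-fold higher. Of the 1731 unnamed spots compared 49 were higher and 35 lower, and of all 9660 spots compared 180 and 251.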
